A study of Sus scrofa with 4 samples.

Results

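The BCL2 family of apoptosis regulators was followed in porcine parthenogenetic 4-cell embryos, through the rows of the deposited gene table whose name equals one of 10 listed symbols. Of the 35248 rows, 7 carried such a name: BCL2L1, MCL1, BAX, BAK1, BID, BCL2L11 and PMAIP1. Rows of BCL2L10 and BBC3 have no entry in the name column and were found by identifier (an NCBI gene number in the description and an Ensembl identifier). They are described beside the 7 and marked where counted. BCL2 itself is not analysed here. The row named KDSR, after a neighbouring gene, spans the whole place that the Sscrofa11.1 RefSeq annotation gives to BCL2, so reads of both genes cannot be told apart in it.

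The series has 2 groups of 2 RNA-seq libraries. The Bobcat339 embryos were treated with 50 µM Bobcat339, a cytosine-based compound used to inhibit TET dioxygenases. The control embryos received DMSO. All embryos came from electro-activated oocytes, had been held in cytochalasin B after activation and were cultured for 48 h in PZM-3 with bovine serum albumin, and all lacked a paternal genome. The study asked how TET inhibition alters gene expression in such embryos. No label ties the libraries to separate cultures. The p-values therefore cover the scatter of these libraries alone, and that scatter may be technical.

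BCL2 family proteins decide whether the outer mitochondrial membrane stays intact. Roles are given as known from human and mouse cells. Guardians such as BCL2L1 and MCL1 hold the pore-forming effectors BAX and BAK1 in check, and BH3-only proteins such as BID, BCL2L11, BBC3 and PMAIP1 bind guardians or activate effectors when a cell is stressed. Released cytochrome c then assembles the apoptosome with APAF1 and caspase-9, which switches on further caspases. Oocytes and cleavage embryos carry stored transcripts of many such genes, and the guardian-to-effector balance is often read as a measure of embryo stress.

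The libraries held 14681221 and 13568525 counts for Bobcat339 and 14390560 and 13852262 for the control, so that 3 counts, the level allowed by a count of 0, correspond to 0.204 to 0.221 CPM (counts scaled by library total alone). Unless marked so, CPM from here on are TMM-normalised, that is, further scaled for library composition. That floor covers counting error only. The control libraries were less alike than the Bobcat339 libraries, with a Pearson correlation of log2 CPM across genes of 0.976 between Bobcat339 libraries, against 0.959 between controls. Pairs across the groups lay between 0.962 and 0.973, so each control was closer to either Bobcat339 library than to the other control. Markers of oocytes and early embryos had 13 rows, summing to 12430 and 13850 CPM in Bobcat339 libraries and 11940 and 13830 CPM in control libraries. The highest were BMP15 (mean 4268 CPM) and WEE2 (4149 CPM). Of the 13 rows, FIGLA and ZAR1 had 6 to 18 counts a library. The listed markers DPPA3 and NLRP5 had no row. The list joins oocyte and embryo genes, so it does not tell the 4-cell stage from an oocyte. Markers of cumulus and granulosa cells, which surround the oocyte, summed over 21 rows to 130.9 and 164.2 CPM in Bobcat339 libraries and 137.5 and 147.1 CPM in control libraries. Of the 21 rows, 10 had at most 9 counts in every library, among them FSHR with 1 count in all and AMH, which was at 0 in all 4 libraries. Another 6 had at least 50 counts in every library. Of these, VCAN (806 to 1146 counts) and VIM (403 to 747 counts) are expressed by other cells too. The rest were FST (111 to 184 counts), COL1A2 (83 to 115), STAR (62 to 126) and CD44 (50 to 66). TNFAIP6, chosen after its values were seen, had 7 and 4 counts in Bobcat339 libraries and 24 and 22 counts in control libraries. It passed the count filter through the control libraries alone. Its log2 fold change was −2.07 (SE 0.71, edgeR adjusted p = 0.999), and these values are a description only. No other of the 11 tested rows of this list had an unadjusted edgeR p under 0.05, where 4.0% of all tested rows did. In the list 4 rows were above 0 and 7 below. The part of such cells in the results below was not tested. In whole-embryo RNA, fewer cells with a transcript and less RNA per cell cannot be told apart.

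Guardian transcripts made up most of the signal of the 9 listed family rows. Levels of different genes are compared in the authors' FPKM, which divides by length and depth; the length behind it was shorter than the deposited gene length for several members, so the order was also read on the deposited length. BCL2L1, which encodes BCL-XL, was at 145 and 162 FPKM in Bobcat339 libraries and at 116 and 181 FPKM in control libraries. It was above 98.2% of the tested rows by mean FPKM. BCL2L10, an oocyte-enriched relative in human, followed with 67.1 and 64.8 FPKM in Bobcat339 libraries and 61.1 and 102 FPKM in control libraries. MCL1, a short-lived guardian needed for early mouse development, had 36.4 and 40.9 FPKM in Bobcat339 libraries and 45.7 and 33.9 FPKM in control libraries. In FPKM these 3 genes did not overlap in level across the 4 libraries and kept the same order in each of them. The order of the first pair depended on the length used. The FPKM of BCL2L1 rests on 8165 bases against a deposited length of 17580, while that of BCL2L10 rests on 555 bases in both. Per kilobase of deposited length BCL2L1 averaged 70.1 and BCL2L10 73.7 CPM (scaled by library total alone), and BCL2L1 was the higher in 2 of 4 libraries; MCL1 was then at 18.9, below both. Together they made up 83.3% and 84.4% of the summed FPKM of the 9 family rows in Bobcat339 libraries, and 79.4% and 90.4% in control libraries. On the deposited length the shares were 82.7% and 82.9% in Bobcat339 libraries and 78.5% and 89.9% in control libraries. These shares leave out BAD, a BH3-only gene outside the 10 listed, which had 202.7 and 215.9 FPKM in Bobcat339 libraries and 220.0 and 112.4 FPKM in control libraries and so exceeded BCL2L1 in 3 of 4 libraries.

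The effectors were unequal. BAK1 was at 16.3 and 12.5 FPKM in Bobcat339 libraries and 17.6 and 9.04 FPKM in control libraries. BAX stood at 0.161 and 0.213 FPKM in Bobcat339 libraries and 0.201 and 0.493 FPKM in control libraries, below all but 4.6% of the tested rows. The FPKM ratio of BAK1 to BAX was 101 and 58.9 in Bobcat339 libraries and 87.7 and 18.3 in control libraries, so BAK1 exceeded BAX in all 4. The BAX value rests on 9 and 11 counts in Bobcat339 libraries and 11 and 26 counts in control libraries, with exact Poisson 95% intervals of 4.12 to 17.1 and 5.49 to 19.7 counts in the Bobcat339 libraries and 5.49 to 19.7 and 17.0 to 38.1 counts in the control libraries, which cover counting error only.

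Among the 4 BH3-only genes of the list, BID and BCL2L11 had the highest FPKM. BID, which caspase-8 cleaves to link death receptors with mitochondria, was at 18.3 and 15.4 FPKM in Bobcat339 libraries and 28.4 and 12.2 FPKM in control libraries. BCL2L11, which encodes BIM, was at 13.0 and 17.7 FPKM in Bobcat339 libraries and 8.63 and 7.08 FPKM in control libraries. BID lay above BAK1 within each of the 4 libraries, 1.12-fold and 1.23-fold in Bobcat339 libraries and 1.61-fold and 1.35-fold in control libraries, although their ranges across libraries overlapped. BAK1 lay above BCL2L11 in 3 of 4 libraries in FPKM, but BCL2L11 lay above BAK1 in 3 of 4 on the deposited length, so the order of that pair was not settled. PMAIP1, which encodes NOXA, a partner of MCL1, followed with 1.94 and 3.03 FPKM in Bobcat339 libraries and 2.55 and 2.86 FPKM in control libraries. BBC3, which encodes PUMA, had 1 and 5 counts in Bobcat339 libraries and 4 and 14 in control libraries, too few for the filter, and its range overlapped that of BAX.

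**Figure D1:**
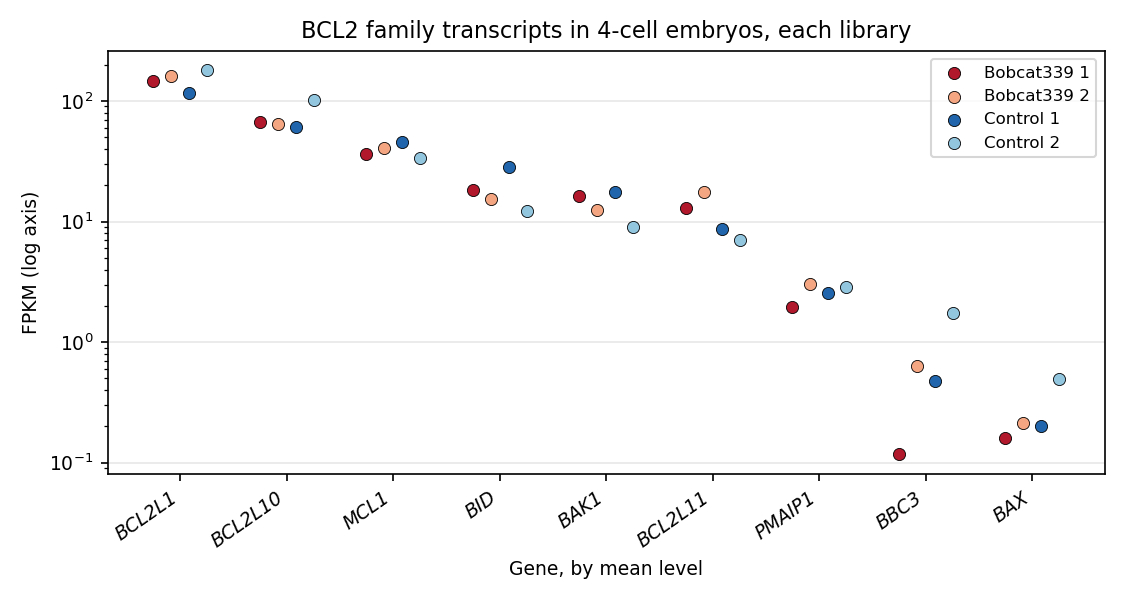
FPKM of 9 BCL2 family rows in each of 4 libraries on a log axis, Bobcat339 libraries in reds and control libraries in blues, genes ordered by mean level. BCL2L1 is highest, between 116 and 181 FPKM, and BAX lowest by mean, between 0.161 and 0.493 FPKM.

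Coordinates are those of the table and match Sscrofa11.1. BCL2L1 (ENSSSCG00000035357) spans chromosome 17: 35315475 to 35415778 on the minus strand, of which the RefSeq gene fills 49640 bases. The rest of the row reaches over other genes. It covers 5481 bases of the row of ID1 and 5516 bases of that of COX4I2, both on the opposite strand and with 0 to 5 counts a library of their own, and it overlaps the opposite-strand spindle gene TPX2 by 192 bases. The row also overlaps 5592 bases of the protein-coding RefSeq gene LOC110257420 and 7078 bases of a RefSeq long non-coding RNA. Reads from these places could be counted in the BCL2L1 row. MCL1 (ENSSSCG00000039314) spans chromosome 4: 98527907 to 98568965 on the plus strand and covers the place of its neighbour ENSA. The row of ENSA, on the same strand, overlaps 13566 bases of it and had 552 to 736 counts a library of its own. Other reads of ENSA could be counted in the MCL1 row. BCL2L10 (ENSSSCG00000004623, chromosome 1: 119597088 to 119599685, plus strand) and PMAIP1 (ENSSSCG00000026454, chromosome 1: 161182890 to 161188164, minus strand) share a chromosome, as do BAX (ENSSSCG00000003144, chromosome 6: 54210654 to 54229745, plus strand) and BBC3 (ENSSSCG00000003112, chromosome 6: 53038088 to 53042777, minus strand). The BAX row reaches over the place of DHDH, whose own row had 1 or 2 counts a library, and overlaps NUCB1 by 129 bases. BAK1 (ENSSSCG00000001516) lies on chromosome 7: 29807011 to 29815191, where the same-strand row of IP6K3, with 0 to 2 counts a library, covers 6670 bases of it and a RefSeq long non-coding RNA 7370 bases. BID (ENSSSCG00000000769) lies on chromosome 5: 69849002 to 69875853, where a RefSeq long non-coding RNA overlaps 11050 bases of it. BCL2L11 (ENSSSCG00000022322) lies on chromosome 3: 45161122 to 45201186. Its row overlaps the protein-coding RefSeq gene LOC110260116 by 1221 bases, so reads of that gene could be counted in it. BAK1, BID and BCL2L11 are all on the minus strand.

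Between Bobcat339 and control embryos none of the family rows passed the test. With edgeR's quasi-likelihood test over 18481 rows, 0 of the 8 tested family rows had a Benjamini-Hochberg adjusted p under 0.05, against 0.0% of all rows (0 called); the adjusted p was 0.999 for each of the 8. At an unadjusted p under 0.05 there was 1 family row, BCL2L11, against 740 rows or 4.0% of all. By limma-voom 0 rows (0.0%) were called, and by DESeq2 5 rows (0.0167%), none of them in the family. With the replicate number as a block 44 rows (0.238%) were called, again none in the family. The median log2 fold change of Bobcat339 over control was −0.11 over the 8 family rows (−0.07 over the 7 matched by name) and −0.02 over all tested rows, and 3 of the 8 were above 0, where 47.1% of all rows were. The 2 groups did not overlap in 1 of the 8, BCL2L11, against 29.3% of all tested rows, or 13.3% counting only rows higher in Bobcat339 embryos.

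BCL2L11 had the smallest unadjusted p of the family. It was at 26.4 and 35.4 CPM in Bobcat339 libraries, against 18.0 and 14.2 CPM in control libraries. Both Bobcat339 libraries lay above both controls, the group means being 30.9 ± 6.37 CPM with Bobcat339 and 16.1 ± 2.69 CPM with DMSO (SD, n = 2 each). The log2 fold change was 0.94 (SE 0.33) with a 95% interval of 0.24 to 1.64 (not adjusted for the number of rows), a ratio of 1.92. The unadjusted edgeR p of 0.0115 was matched or bettered by 201 rows, 1.09% of those tested, and the difference did not pass over all rows (edgeR adjusted p = 0.999). Without control 1, with the filter applied to the 3 remaining libraries, BCL2L11 passed (log2 fold change 1.12, edgeR adjusted p = 0.0103), where 2.03% of 20063 rows passed as higher. The same 3 libraries on the 18481 rows of the full fit gave an adjusted p of 0.136, and over all its alternatives the adjusted p lay between 0.0103 and 1.0.

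The guardians differed between the groups by less than the spread of the controls. BCL2L1 averaged 1244 ± 89.0 CPM with Bobcat339 and 1216 ± 342 CPM with DMSO (SD, n = 2 each). Its log2 fold change was 0.03 with an SE of 0.24 and a 95% interval of −0.48 to 0.55, which corresponds to a ratio between 0.717 and 1.46. MCL1 had 231.7 and 256.7 CPM in Bobcat339 libraries and 299.6 and 213.7 CPM in control libraries, with a log2 fold change of −0.07 (95% interval −0.63 to 0.49). BCL2L10 had 37.2 and 35.5 CPM in Bobcat339 libraries and 34.9 and 55.8 CPM in control libraries, and −0.32 (−1.0 to 0.36) on the same log2 scale. In each of the 3 genes both Bobcat339 libraries lay between the controls.

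The effectors and BID had the same placement or wide intervals. BAK1 had 72.3 and 54.9 CPM in Bobcat339 libraries and 80.4 and 39.7 CPM in control libraries, with a log2 fold change of 0.08 (95% interval −0.64 to 0.81). BID had 89.2 and 74.2 CPM in Bobcat339 libraries and 142.6 and 59.0 CPM in control libraries, with a log2 fold change of −0.30 (−1.05 to 0.44). In both genes control 1 was highest and control 2 lowest. Without control 2 the log2 fold change of BID was −0.77 (edgeR adjusted p = 0.0555), and on the rows of the full fit it passed at −0.77 (adjusted p = 0.0255, where 2.88% of rows passed as lower); without control 1 it was 0.47, and the adjusted p over all alternatives of BID lay between 0.0255 and 1.0. BAX had 0.612 and 0.799 CPM in Bobcat339 libraries and 0.786 and 1.86 CPM in control libraries, with a log2 fold change of −0.90 and an interval of −2.37 to 0.58, the widest of the 8. Without control 2, the highest library, the BAX value was −0.13, and without control 1 it was −1.39. PMAIP1 had 5.17 and 7.99 CPM in Bobcat339 libraries and 7.003 and 7.57 CPM in control libraries, with a log2 fold change of −0.15 (−0.96 to 0.66).

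**Figure D2:**
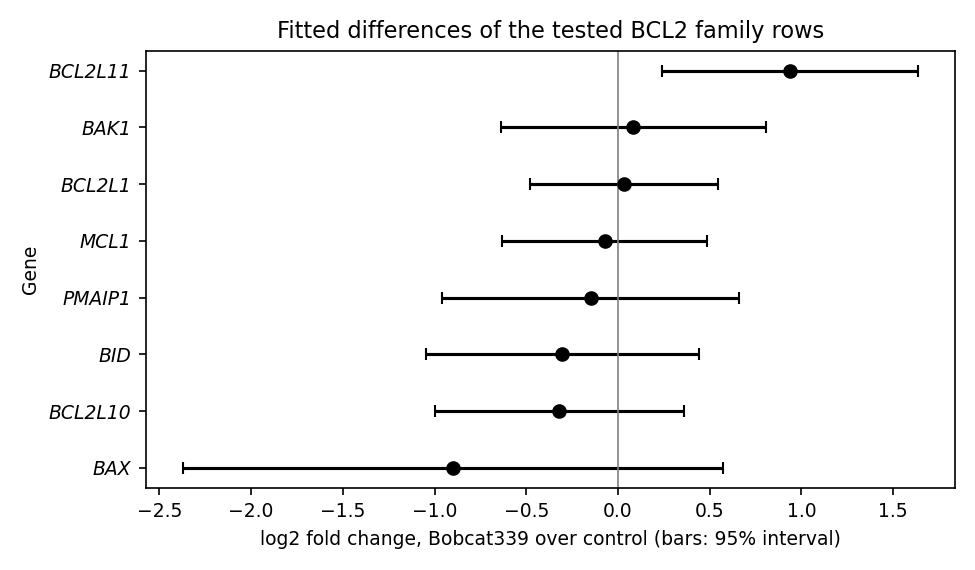
Log2 fold change of Bobcat339 over control for the 8 tested rows, with 95% intervals that are not adjusted for the number of rows. The interval of BCL2L11 runs from 0.24 to 1.64 and those of the other 7 include 0; none of the 8 passed after adjustment.

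The control libraries lay further apart than the Bobcat339 libraries in most family rows, as in most rows of the table. In 6 of the 8 tested rows the log2 difference between the controls was larger in size than that between the Bobcat339 libraries, as in 68.1% of all tested rows. In 6 of the 8 it was also larger in size than the difference between the groups, as in 71.6% of all tested rows. A difference between single libraries varies more than 1 between means of 2, so the latter share is raised by the measure itself. In 5 of the 8 (BCL2L1, BCL2L10, MCL1, BAK1 and BID) the controls lay at both ends with both Bobcat339 libraries between them, against 30.7% of all tested rows. BID and BAK1 had the same order of libraries from high to low, control 1, Bobcat339 1, Bobcat339 2 and control 2, an order found in 10.4% of tested rows. BCL2L1 had the reverse order (8.38% of rows). Control 1 was above control 2 by 1.27 (log2) in BID, 1.01 in BAK1 and 0.49 in MCL1, while the same difference was −0.58 in BCL2L1 and −0.67 in BCL2L10. PMAIP1, at −0.10, had the closest controls.

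**Figure D3:**
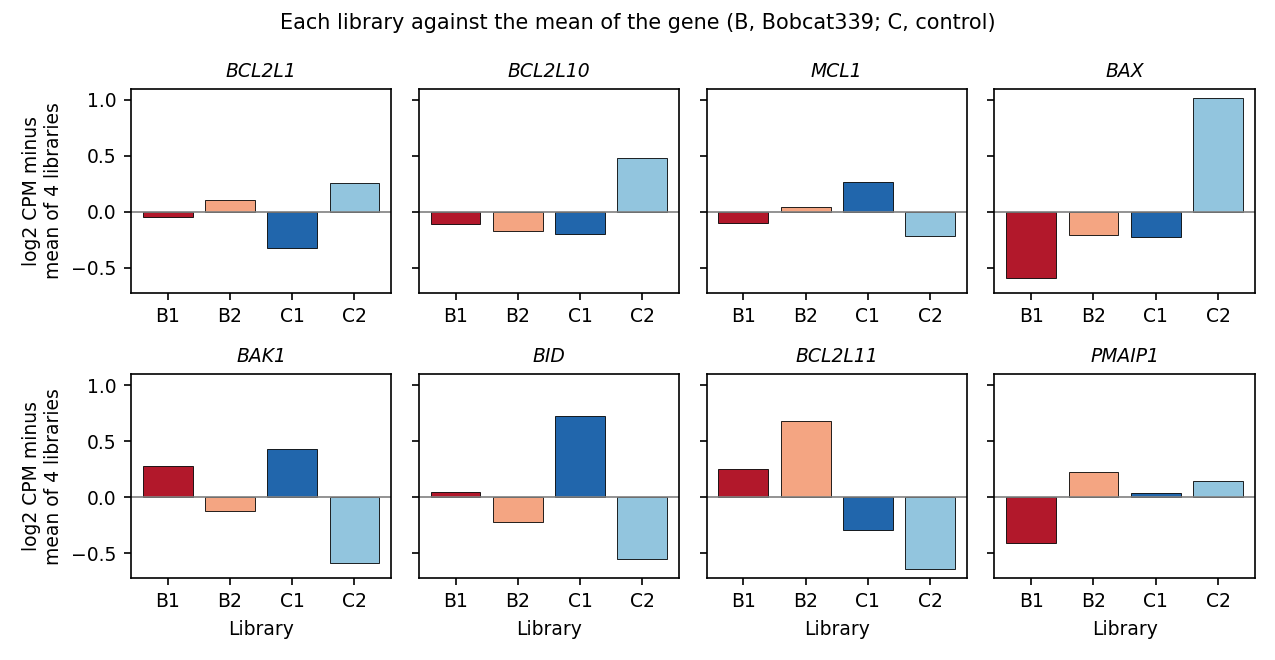
Log2 CPM of each library minus the mean of the gene over the 4 libraries, for the 8 tested rows (B, Bobcat339; C, control). In BID and BAK1 control 1 is highest and control 2 lowest, in BCL2L1 the reverse holds, and in BCL2L11 both Bobcat339 libraries are above both controls.

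The balance within a library also differed most between the controls. Summed guardians (BCL2L1, BCL2L10 and MCL1) exceeded summed effectors (BAX and BAK1) 15.1-fold and 21.0-fold in Bobcat339 libraries, and 12.5-fold and 33.2-fold in control libraries, on the FPKM scale. On the deposited length the ratio was 20.8 and 28.1 in Bobcat339 libraries, and 17.3 and 46.0 in control libraries. On both scales the Bobcat339 libraries lay between the controls. On the log2 scale the ratio averaged 4.15 ± 0.34 in Bobcat339 embryos and 4.35 ± 0.99 in control embryos (SD, n = 2 each), a difference of −0.20. With 2 libraries against 2 an exact two-sided permutation test cannot give a p below 0.333, so no test was made. BCL2L1 exceeded MCL1 3.98-fold and 3.97-fold in Bobcat339 libraries, and 2.54-fold and 5.33-fold in control libraries.

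Ratios to BCL2L11 were chosen after its values were seen and are given as a description. The FPKM ratio of BCL2L11 to MCL1, whose protein BIM binds, was 0.357 and 0.433 in Bobcat339 libraries, against 0.189 and 0.209 in control libraries. The ratio of BCL2L11 to BCL2L1 was 0.0898 and 0.109 in Bobcat339 libraries, against 0.0743 and 0.0392 in control libraries. In both ratios the Bobcat339 libraries lay above the controls, as in BCL2L11 itself, so the ratios add no separate support.

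**Figure D4:**
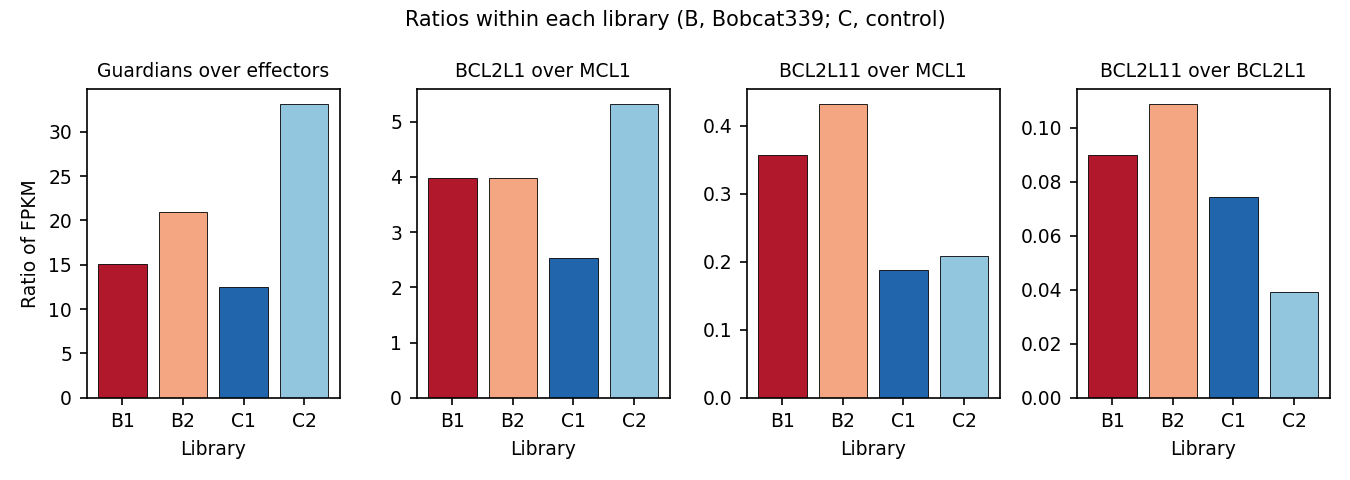
Ratios of FPKM within each library (B, Bobcat339; C, control). The guardian-to-effector ratio of the Bobcat339 libraries, 15.1 and 21.0, lies between the control values of 12.5 and 33.2. BCL2L11 over MCL1 is 0.357 and 0.433 in Bobcat339 libraries and 0.189 and 0.209 in controls. The ratios to BCL2L11 were chosen after its values were seen.

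The rest of the apoptosis machinery was read through 7 lists with 59 tested rows. None of the 59 passed over all rows (edgeR, 0 called). An unadjusted edgeR p under 0.05 was found in 2, HRK and CASP8, against 4.0% of all tested rows. Both passed the count filter through the control libraries alone, so this count is a description only. The median log2 fold change was −0.05, against −0.02 over all tested rows. Of the 59, 23 were above 0 and 36 below. Of all tested rows 47.1% were above 0, which is also the share to set beside each list below. The groups did not overlap in 17 of the 59, or 28.8%, against 29.3% of all tested rows. Of 12 other BCL2 family rows 3 were above 0 and 9 below (median −0.06). The rows with the most counts were BAD, whose protein is controlled by phosphorylation (log2 fold change 0.30, SE 0.31), and BNIP2 (−0.02, SE 0.31). The lowest value belonged to HRK, a BH3-only gene outside the naming rule that was chosen after its values were seen. HRK had 5 and 2 counts in Bobcat339 libraries and 35 and 14 counts in control libraries. Its log2 fold change was −2.80 (SE 0.81, edgeR adjusted p = 0.875, unadjusted p = 0.00301). The row passed the count filter through the control libraries alone, where it was high, so these values are a description only.

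Downstream of the family, the apoptosome and released mitochondrial factors had a median of −0.23 over 9 tested rows, 3 above 0 and 6 below. Cytochrome c, encoded by CYCS, was at 221.5 and 215.6 CPM in Bobcat339 libraries and 226.7 and 210.8 CPM in control libraries, and VDAC1, a channel of the outer membrane, had −0.23 (SE 0.27). The caspase list had a median of 0.23 over 8 rows, with 6 above 0 and 2 below. It included CASP8AP2, a caspase-8 partner also involved in histone gene expression (0.29, SE 0.25). CASP9, the initiator of the apoptosome, had 1 and 0 counts in Bobcat339 libraries and 4 and 5 counts in control libraries and was not tested. CASP8, chosen after its values were seen, had 6 and 8 counts in Bobcat339 libraries and 28 and 13 counts in control libraries. Its log2 fold change was −1.55 (SE 0.72, edgeR adjusted p = 0.999). Like HRK, CASP8 passed the count filter through the control libraries alone, so its values are a description only. Inhibitors of apoptosis had a median of 0.22 over 5 rows, 3 above 0 and 2 below, with XIAP, which blocks caspases directly, at 0.31 (SE 0.28) and BIRC3 at 0.46 (SE 0.31).

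Upstream, the death receptors and adaptors had a median of −0.13 over 7 rows, 1 above 0 and 6 below, with the adaptor FADD at −0.04 (SE 0.32) and the kinase RIPK1 at −0.01 (SE 0.34). Enzymes that add ubiquitin to MCL1 or remove it had a median of −0.14 over 6 rows, 2 above 0 and 4 below. USP9X, which stabilises MCL1, was at −0.18 (SE 0.25) and HUWE1, which marks it for degradation, at −0.19 (SE 0.27). Transcription regulators linked to BH3-only genes had a median of −0.03 over 12 rows, 5 above 0 and 7 below, with the stress factor ATF4 at 0.27 (SE 0.27) and MDM4 at −0.002 (SE 0.31), the rows with the most counts in that list. Among factors known to raise BCL2L11, picked after the values were seen, FOXO3 had a log2 fold change of 0.04 (SE 0.32). DDIT3 had 26.6 and 61.2 CPM in Bobcat339 libraries and 26.7 and 30.0 CPM in control libraries (0.63, SE 0.37), so 1 Bobcat339 library alone stood high. Of other regulators in the list, named with their values known too, FOXO1 was at −0.12 (SE 0.35) and E2F1 at −0.05 (SE 0.44). JUN was at 0.49 (SE 0.43). A link of any regulator in the list to the BCL2L11 values was not tested.

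**Figure D5:**
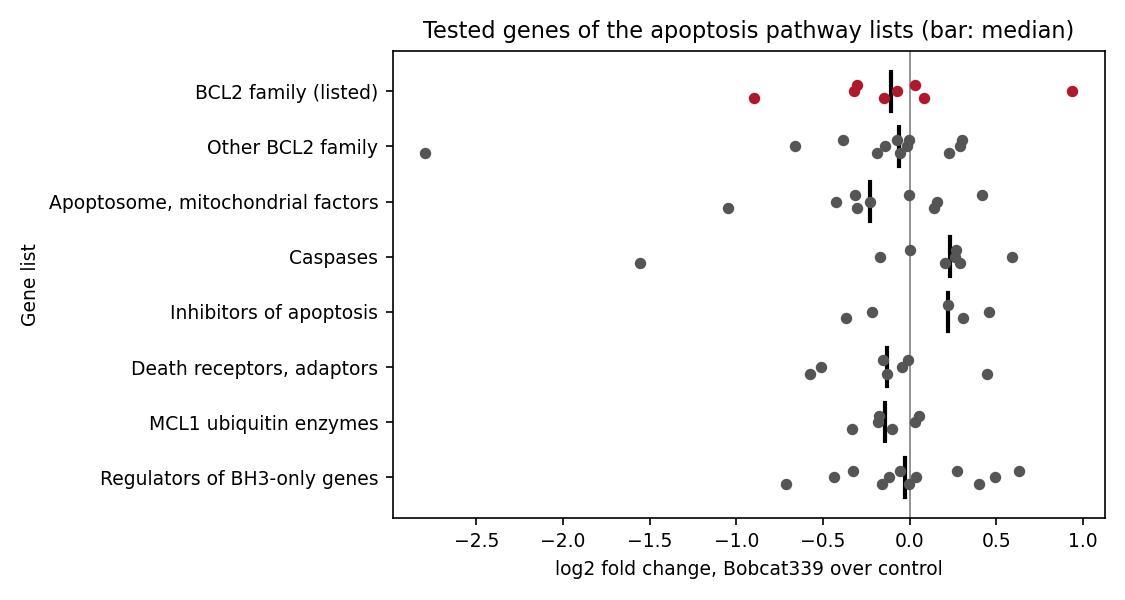
Log2 fold change of Bobcat339 over control for each tested gene of the BCL2 family rows (red) and of 7 other apoptosis lists (grey), with a bar at each median. List medians run from −0.23 to 0.23, and the lowest single value is HRK at −2.80. The HRK row passed the count filter through the control libraries alone.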

How the data were processed

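The members and lists were chosen with earlier results of these data known. RNA was extracted with TRIzol and libraries made with Smart-seq2, per the labels' protocols. Tools listed in the submitters' processing notes, with no role, are HISAT2 2.0.5, HTSeq, Trimmomatic and DESeq2 1.16.1, with the build Sscrofa10.2; strand setting and embryos per library are not given in the sources used here. Of 14155 symbols compared, 98.8% overlap their gene in Sscrofa11.1, so coordinates are named so. The authors deposited raw counts per gene, which were tested, and FPKM, per the file headers, used for levels between genes. The deposited length is not the length behind every FPKM: they were within 2% for 36.5% of 10854 rows with at least 50 counts in every library, and the BAK1 length of 10107 bases exceeds its span of 8181.

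The fit used edgeR 4.0.16 in R 4.3.3 (filterByExpr, minimum count 10; TMM; quasi-likelihood test; Benjamini-Hochberg at 0.05) on 18481 of 35248 rows, with group as the only term; the common biological coefficient of variation was 26.4%. The steps were tested on simulated counts. Chi-square per row between replicates was 12.5 for Bobcat339 and 48.2 for the control, above counting noise. Alternatives were DESeq2 1.42.0, limma-voom (limma 3.58.1), other scalings, no filter, the replicate block and each library left out; leaving libraries out on the rows of the full fit was added after the data were seen. All 10 listed genes are named where analysed, and of each other list the 2 tested rows with the highest mean CPM, or any that passed. Some genes that this rule would name are not reported here.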

Additional observations from a re-analysis of the deposited data

How the results depend on the processing

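The edgeR count of called rows over the whole table was 0, and it was 5 with DESeq2 and 44 with the replicate block; no family row passed with either. Leaving out 1 library at a time gave 0 to 586 rows with the filter applied again, and 0 to 780 on the rows of the full fit (added after the data were seen), with 0 to 1 family rows among them in each; the high counts came without control 1 (586, or 11 on the rows of the full fit) and without control 2 (494, or 780). The remaining control was then assumed to vary as the Bobcat339 pair does. No label ties libraries of the same number together, and the correlation of their deviations from the group means was 0.159. Whether same-numbered libraries share a batch was not tested. The replicate block left the log2 fold change of BCL2L11 at 0.93 (edgeR adjusted p = 0.346). BAX and BCL2L11 kept their direction under all 14 alternatives, BCL2L11 between 0.76 and 1.14 and BAX between −1.39 and −0.13. The other 6 genes turned round only when a library was left out, and with 1 library out they ranged from −0.23 to 0.38 for BCL2L1, −0.62 to 0.089 for BCL2L10, −0.27 to 0.19 for MCL1, −0.30 to 0.68 for BAK1, −0.77 to 0.47 for BID and −0.45 to 0.13 for PMAIP1. BCL2L1, MCL1 and BID turned without control 1 (−0.23, 0.19 and 0.47 under either filter), BCL2L10 and BAK1 without control 2 (0.089 and −0.30), BAK1 and PMAIP1 without Bobcat339 1 (−0.14 and 0.13, or −0.13 and 0.13 on the rows of the full fit). MCL1 without Bobcat339 1 (0.00048, on the rows of the full fit) and BCL2L1 without Bobcat339 2 (−0.00052) came to lie at 0. The cause was not tested. The log2 difference in the guardian-to-effector ratio, −0.20, lay between −0.90 and 0.51 with 1 library left out, and was −0.12 from CPM and −0.11 without BCL2L10 and −0.22 on the deposited length (both added after the data were seen). A ratio of BCL2 to BAX was not run. Depth limits BAX and BBC3, which had 1 to 26 counts a library.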
